A study of Mus musculus with 8 samples.

Results

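The genes described are those of the mitochondrial ribosomal proteins, chosen by name: protein-coding genes whose mouse symbol is Mrpl or Mrps followed by a number and, in some cases, a letter from a to c. The rule took 78 of the 27178 genes listed, 49 named for the large subunit (Mrpl) and 29 for the small subunit (Mrps), spread over 17 chromosomes. RNA had been sequenced from 8 libraries of embryonic mouse cortex in 2 experiments on Lockd, a long noncoding RNA. In the knockdown experiment, ICR embryos of wild-type genotype received a Lockd shRNA plasmid (shRNA) or a control plasmid (control), both at 3 µg/µl, by electroporation into the lateral ventricle at embryonic day (E) 14.5, and cortical cells positive for GFP were isolated by sorting at E16.5. The knock-in experiment used pooled E13.5 cortices, not treated, of PlyA-KI and of wild-type (WT) C57BL/6 embryos. There were 2 libraries per group, described in the labels as biological replicates. The labels spell out neither the PlyA-KI allele nor the litters or number of embryos behind a library, so p-values measure the spread between these libraries only.

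Mitochondria carry their own ribosome, which translates the 13 proteins encoded in mitochondrial DNA, all of them core subunits of the respiratory chain and the ATP synthase. Its ribosomal RNAs come from mitochondrial DNA, while its proteins are encoded in the nucleus, made in the cytosol and imported. Some of these proteins have counterparts in bacteria and others are particular to mitochondria. The names do not always give the place in the particle: structures put the Mrps18a and Mrps30 proteins in the large subunit, and the Mrps36 protein belongs to the oxoglutarate dehydrogenase complex rather than to the ribosome. In growing and differentiating cells the set is known as part of the machinery that builds oxidative capacity.

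Sequences around the start site show what many of these genes share besides their name. Of the 78 genes, 69 had an entry in the RefSeq promoter table (GRCm38.p6), which covers 250 bases before and 50 after the start. Both strands were searched for an ETS motif (CCGGAAG), an NRF1 motif (GCGCA, any base, GCGC) and a YY1 motif (AAGATGGCG). In these 69 genes no matches of different motifs shared bases. At least 1 of them lay in 59.4% of the 69 genes, against 15.1% of all 27025 genes with an entry. These 27025 were not limited to protein-coding genes, while the 69 are all protein-coding. The ETS motif was found in 26 of the 69 (37.7%, against 9.93% of all genes), the NRF1 motif in 13 (18.8%, against 5.19%) and the YY1 motif in 8 (11.6%, against 1.64%). These windows were also richer in CpG, with a median of 21 CpG dinucleotides against 7 in all genes, and the part of CpG content in the motif shares was not tested. The 4 windows below, from 250 bases before to 30 bases after the start and read along the gene's strand, show each motif in capitals. They were picked from genes that hold a motif and are named in the comparisons. Mrpl32 had the smallest p in the knock-in, Mrpl43 and Mrps18a were higher in the sorted E16.5 cells, and Mrps27 was lower there. Windows without a match were left out, among them those of Mrps30 and Mrpl50, which had the smallest p of the genes higher and lower there.
Mrpl32: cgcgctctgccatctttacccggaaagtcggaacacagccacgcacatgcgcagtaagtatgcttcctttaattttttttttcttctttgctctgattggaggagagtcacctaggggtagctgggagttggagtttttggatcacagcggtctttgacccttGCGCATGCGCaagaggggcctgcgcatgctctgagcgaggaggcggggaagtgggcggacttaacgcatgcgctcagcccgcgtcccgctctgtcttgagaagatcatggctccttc
Mrpl43: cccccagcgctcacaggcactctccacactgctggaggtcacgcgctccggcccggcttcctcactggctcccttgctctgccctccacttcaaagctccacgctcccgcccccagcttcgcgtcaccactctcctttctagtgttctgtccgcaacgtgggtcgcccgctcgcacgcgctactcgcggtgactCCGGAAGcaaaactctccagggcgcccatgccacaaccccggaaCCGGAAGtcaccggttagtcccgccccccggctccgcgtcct
Mrps18a: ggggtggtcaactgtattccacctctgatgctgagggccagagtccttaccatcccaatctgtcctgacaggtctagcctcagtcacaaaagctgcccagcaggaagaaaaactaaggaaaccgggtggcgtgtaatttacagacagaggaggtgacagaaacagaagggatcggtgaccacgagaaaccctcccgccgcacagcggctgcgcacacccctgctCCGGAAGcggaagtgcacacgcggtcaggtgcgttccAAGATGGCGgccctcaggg
Mrps27: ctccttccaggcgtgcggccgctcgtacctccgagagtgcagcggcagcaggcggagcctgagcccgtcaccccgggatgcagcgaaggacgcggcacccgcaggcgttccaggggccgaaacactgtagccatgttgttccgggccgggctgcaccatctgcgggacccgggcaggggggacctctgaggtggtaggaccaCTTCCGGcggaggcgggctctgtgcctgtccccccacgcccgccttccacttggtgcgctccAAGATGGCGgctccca
The Mrpl32 window (chr13:14613008-14613287, minus strand) holds the NRF1 motif starting 87 bases before the start, where it reads alike on both strands. The Mrpl43 window (chr19:45006413-45006692, minus strand) holds the ETS motif at 56 and at 12 bases before the start. Mrps18a (chr17:46110754-46111033, plus strand) and Mrps27 (chr13:99344536-99344815, plus strand) share an arrangement: an ETS motif 26 and 48 bases before the start, which in Mrps27 lies on the opposite strand and so reads CTTCCGG, and a YY1 motif from base 12 and base 15 of the transcript. A shared head-to-head arrangement with a neighbouring gene was also common. In the GENCODE annotation, 19 of the 78 genes (24.4%) had a protein-coding gene starting on the opposite strand within 1 kb upstream. A slight overlap was allowed, and 7.23% of 21924 protein-coding genes met this rule. Mrpl46 and Mrps11, which overlap each other on opposite strands, were not counted.

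Depth was 12805874 to 15911118 counts per library for the sorted cells and 35167646 to 47460020 for the cortices. Lockd itself had 65 and 45 counts in shRNA libraries against 114 and 112 in control libraries, and 4 and 2 counts in PlyA-KI against 871 and 1139 in WT. Cortical identity was present in all libraries: Emx1, a transcription factor of the dorsal forebrain, stood at 62.6 to 146 CPM (the count scaled to the total of its library). In the sorted cells, 6 endothelial markers summed to 1.81 to 3.98 CPM, against 91.7 to 113 CPM in the dissected cortices, so blood vessels were nearly absent from the sort. In bulk RNA, fewer cells of a type and less RNA per cell cannot be told apart.

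Together the 78 genes took 0.221 to 0.257% of the counts of a library. Their summed level was 2475.9 and 2209.8 CPM in shRNA, 2447 and 2387 CPM in control, 2434 and 2572 CPM in PlyA-KI, and 2289 and 2449.9 CPM in WT. The ranges of all 4 groups overlapped on this sum. Per gene length, as FPKM (the count scaled by gene length and library total, deposited by the authors), the large subunit genes summed to 1.99 to 2.17 times the small subunit genes in each library, which are also fewer. The median small subunit gene stood at 26.0 and 24.4 FPKM in shRNA, 26.1 and 26.6 in control, 19.6 and 21.2 in PlyA-KI, and 19.0 and 17.7 in WT. For the median large subunit gene these FPKM levels were 32.2 and 23.8 in shRNA, 29.4 and 27.9 in control, 26.4 and 29.0 in PlyA-KI, and 25.2 and 28.5 in WT. The medians of the small subunit were thus higher in all 4 sorted libraries than in all 4 cortex libraries, while those of the large subunit overlapped. These medians are a description of levels, without a test. The summed FPKM of the small subunit overlapped, at 694 to 772 in the sorted cells and 662 to 738 in the cortices. Taken gene by gene, the median log2 fold change of the small subunit was -0.0005 in control over WT and -0.07 in shRNA over PlyA-KI.

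Among the 77 genes that passed the filter on low counts, mean levels over 8 libraries ranged from 4.34 to 82.7 FPKM, and 67 genes lay between 5 and 50 FPKM. Mrps21, the counterpart of a bacterial small subunit protein, was highest, at 74.8 and 57.8 FPKM in shRNA, 71.9 and 79.2 in control, 103 and 95.1 in PlyA-KI, and 86.4 and 93.0 in WT. It was followed by large subunit genes: Mrpl52 averaged 78.5 FPKM, Mrpl13 76.1, Mrpl30 72.7 and Mrpl42 68.5. At the low end stood Mrps25 (4.34 FPKM), Mrpl1 (4.97), Mrpl17 (5.21) and Mrpl35 (5.92), of which Mrpl1 is the counterpart of the bacterial stalk protein L1. Mrpl12, whose protein forms the flexible stalk that binds translation factors and is present in several copies per ribosome, ranked 49 in level with 22.1 FPKM. Neighbours in this order were not separable: all 76 neighbouring pairs overlapped in their range over the libraries.

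**Figure D1:**
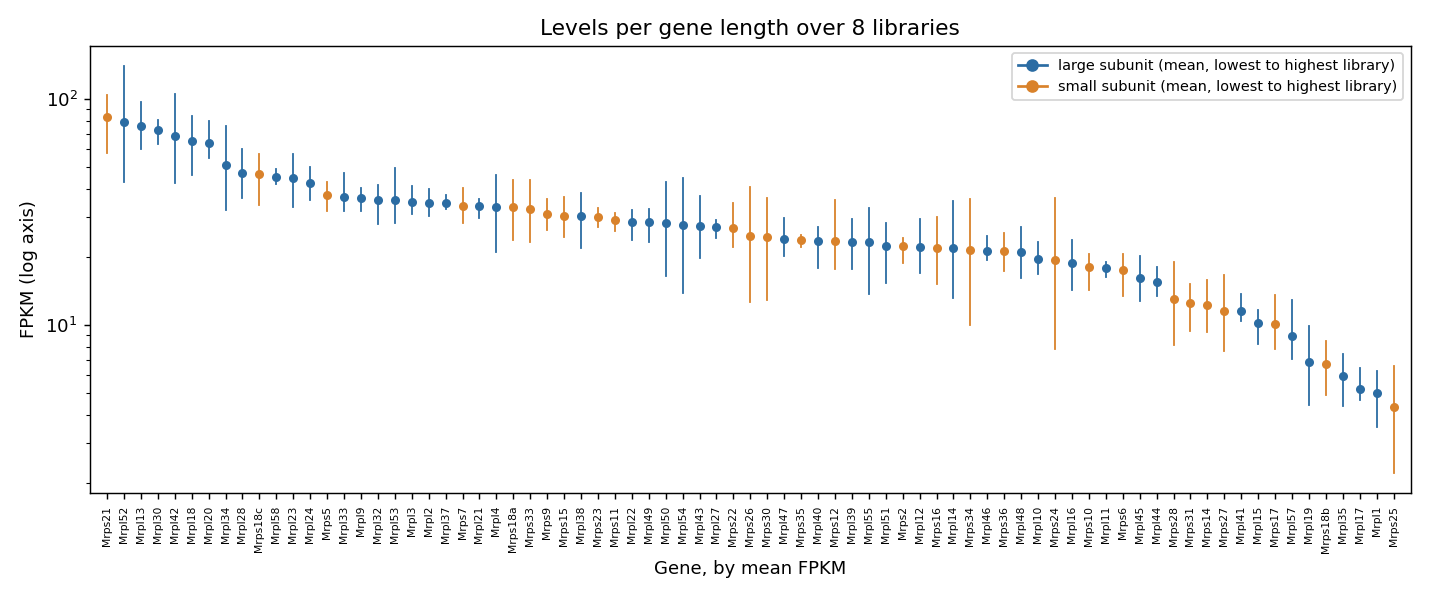
Level per gene length of the 77 tested genes, in FPKM on a log axis, ordered by the mean over 8 libraries (points), with lines from the lowest to the highest library. Large and small subunit genes are interspersed, from Mrps21 at 82.7 FPKM to Mrps25 at 4.34 FPKM, and the lines of neighbours overlap.

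Mrpl36, the counterpart of the smallest bacterial large subunit protein, was the member left out of the tests. It had 0 counts in all 4 sorted libraries and 2 or 3 counts in each cortex library, at or under a limit of 3 counts, which equals 0.063 to 0.234 CPM depending on the library. No fold was computed for it. Such limits cover counting error only. The spread of the others over the 8 libraries was uneven. The highest library exceeded the lowest 1.65-fold in the median gene, 1.13-fold in Mrps35 and 4.67-fold in Mrps24, and 17 genes exceeded 2-fold.

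The 3 genes named Mrps18 encode related proteins that occupy different positions in the ribosome. Mrps18a averaged 40.2 ± 4.54 FPKM in shRNA, 39.5 ± 6.2 in control, 27.3 ± 0.576 in PlyA-KI and 25.0 ± 1.76 in WT (SD, n = 2 each). Mrps18c averaged 39.8 ± 0.880 FPKM in shRNA, 36.3 ± 3.24 in control, 56.0 ± 1.42 in PlyA-KI and 53.2 ± 4.84 in WT. Mrps18b was the lowest of the 3 in every group, at 5.99 ± 0.543 FPKM in shRNA, 5.49 ± 0.839 in control, 7.13 ± 0.413 in PlyA-KI and 8.18 ± 0.465 in WT. Mrps18a and Mrps18c overlapped in the sorted cells, while in the cortices every library had more Mrps18c than Mrps18a.

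The knockdown comparison asked whether these genes responded to the Lockd shRNA in the sorted cells. None of the 77 tested was called, in a comparison where 0% of 13758 genes were called (edgeR's quasi-likelihood test, Benjamini-Hochberg adjusted p under 0.05). At an unadjusted p under 0.05 there were also 0 of these genes, against 7.51% of all genes, and DESeq2 called 0 of them and 0.454% of the 10576 genes to which it gave an adjusted p. Log2 fold changes of shRNA over control ran from -0.27 to 0.24, with a median of -0.02 in the large subunit and 0.02 in the small subunit, beside -0.0004 over all genes. With Mrps30 and Mrps18a counted to the large subunit and Mrps36 left out, as structures place them, the median was -0.02 in both subunits. In 3 genes both shRNA libraries were above both control libraries (15% of all genes) and in 20 both were below (19.8% of all genes).

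The genes with the smallest p were mostly lower in shRNA. Mrpl18, whose protein is the counterpart of a bacterial protein that binds 5S RNA, had 48.4 and 44.0 CPM in shRNA against 49.5 and 61.2 CPM in control, a log2 fold change of -0.25 (SE 0.16, edgeR adjusted p = 0.872). Without control 2 this was -0.07, and without control 1 it was -0.40. Mrps2, a small subunit protein with a bacterial counterpart, had 38.8 and 39.7 CPM in shRNA against 47.4 and 45.3 CPM in control (log2 fold change -0.22, SE 0.15, edgeR adjusted p = 0.879). In both genes the shRNA libraries lay below the control libraries without passing the test. Mrpl1, Mrpl51, Mrpl44, Mrpl50, Mrps16, Mrps33 and Mrpl40 had log2 fold changes from -0.27 to -0.20, and Mrps6 stood at 14.8 and 16.1 CPM in shRNA against 13.3 and 13.2 CPM in control, a log2 fold change of 0.24. Over these 10 genes the edgeR adjusted p ran from 0.872 to 0.933.

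The 2 shRNA libraries differed from each other more than the groups did in the median gene. In 56 of 77 genes shRNA 1 was above shRNA 2, with a median log2 difference of 0.18. Without shRNA 1 the median change of the small subunit was -0.08 and that of the large subunit -0.12, and without shRNA 2 they were 0.08 and 0.05. Leaving out control 1 also turned the small subunit median below 0, to -0.01. Beside these genes, the cytosolic ribosomal protein genes had a median log2 fold change of -0.13, with 77 of 83 below 0, and 9 of 9 markers of S phase and mitosis were below 0, with a median of -0.69 and summed levels of 1031 and 909 CPM in shRNA against 1487 and 1608 CPM in control. At an unadjusted p under 0.05 in edgeR stood 9 of these 9 markers, against 7.51% of all genes. In all 9 both shRNA libraries lay below both control libraries (19.8% of all genes). Below 0 were also 5 of 5 markers of intermediate progenitors and 6 of 8 of radial glia, while 6 of 7 neuron markers were above 0. No gene of these lists was called, and their part in the values of the mitochondrial ribosomal protein genes was not tested.

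**Figure D2:**
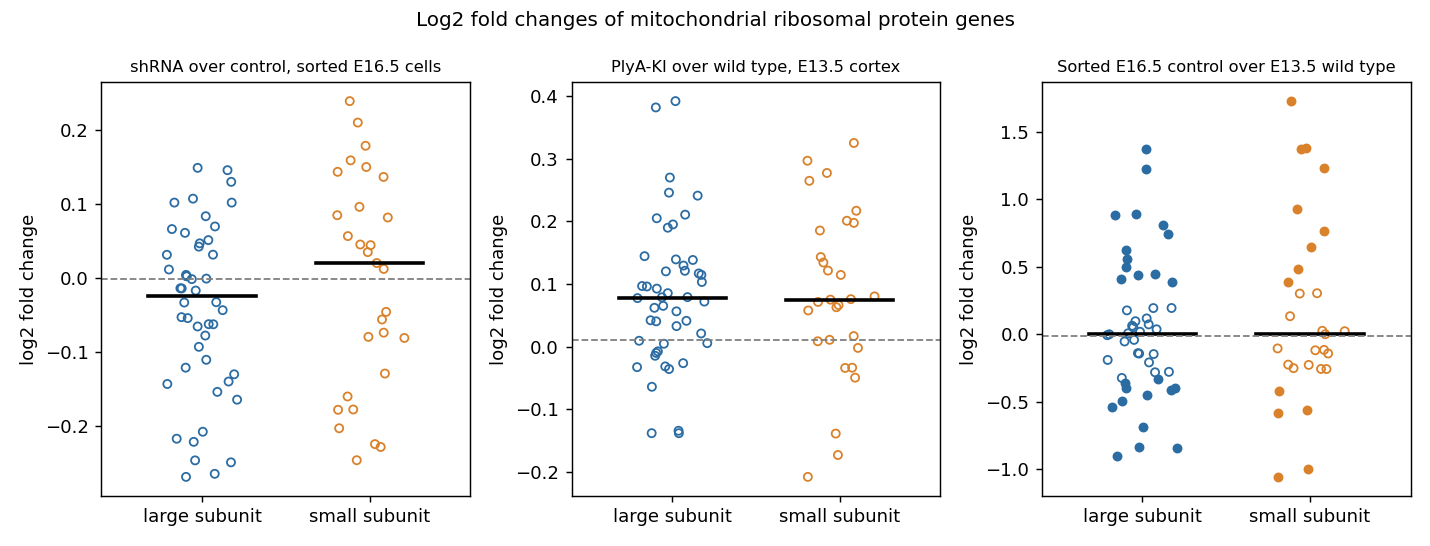
Log2 fold change of each tested gene by subunit in the 3 comparisons (points, filled where the edgeR adjusted p is under 0.05), with the median of the subunit (black bars) and of all genes tested (dashed line). The left and middle panels hold no filled points and stay within -0.27 to 0.39, while the right panel spreads from -1.06 to 1.73 around medians of 0.00; the vertical axes differ.

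The knock-in comparison asked the same of E13.5 cortices. PlyA-KI over WT gave 0 calls among the 77 genes, in edgeR and in DESeq2, where 0.052% of 15398 genes were called by edgeR and 0.922% of 12257 by DESeq2. Of the 77, 59 (76.6%) had a log2 fold change above 0, against 51.8% of all genes, and the median was 0.08 in the large and in the small subunit, beside 0.01 over all genes. At an unadjusted p under 0.05 stood 5 genes, all higher in PlyA-KI, against 12.5% of all genes. Both PlyA-KI libraries lay above both WT libraries in 27 genes (23.7% of all genes) and below them in 2 (20% of all genes). Log2 fold changes ran from -0.21 in Mrps18b to 0.39 in Mrpl54.

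Mrpl32, a large subunit protein that is cut to its mature form by a protease of the inner membrane, had 27.1 and 30.4 CPM in PlyA-KI against 21.5 and 22.3 CPM in WT. Its log2 fold change was 0.38 (SE 0.11) with an edgeR adjusted p of 0.27. Mrps33, a small subunit protein, had 46.0 and 46.2 CPM in PlyA-KI against 37.2 and 39.0 CPM in WT (log2 fold change 0.27, SE 0.09, edgeR adjusted p = 0.284). In both, the libraries of the groups did not overlap, but the difference did not pass over all genes. Mrpl41 had 30.4 and 33.0 CPM in PlyA-KI against 26.4 and 25.8 CPM in WT, and Mrpl54, a protein particular to mitochondria, had 10.6 and 12.6 CPM in PlyA-KI against 8.08 and 9.46 CPM in WT. Mrps36, the dehydrogenase component, had 17.9 and 18.3 CPM in PlyA-KI against 13.8 and 15.5 CPM in WT, where 4 near-identical pseudogene copies make its counts uncertain. For Mrpl30, Mrps14, Mrpl33, Mrpl53 and Mrps28 the log2 fold change was between 0.20 and 0.33, and over these 10 genes the edgeR adjusted p ran from 0.27 to 0.473. For Mrpl53, 88.0% of exon bases overlap other annotated genes. Mrpl32, Mrps33 and Mrpl41 each have 1 pseudogene copy, so their counts are uncertain too.

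The median depended on single libraries. Without WT 1 the median log2 fold change was 0.006 in the large and 0.02 in the small subunit, and without WT 2 it was 0.14 and 0.12. Without PlyA-KI 2 it was 0.03 and 0.02, and without PlyA-KI 1 it was 0.09 and 0.12. Most of these genes are short, with 62 of 77 in the shortest quartile of gene length, where all genes had a median log2 fold change of 0.08 and these 62 had one of 0.08 too. In the second quartile the 8 genes of the set had a median of 0.08, against 0.01 for all genes, in the third the 4 had 0.03 against -0.01, and in the longest the 3 had -0.04, as had all genes. The part of length in these values was not tested.

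Other groups of genes were read beside these in PlyA-KI and WT. The 13 subunits encoded by mitochondrial DNA, the products of the mitochondrial ribosome, summed to 28059.8 and 30375 CPM in PlyA-KI against 22028 and 20358 CPM in WT. All 13 were above 0 in log2 fold change, with a median of 0.51. At an unadjusted p under 0.05 in edgeR stood 10 of them, all higher, against 12.5% of all genes. In 10 both PlyA-KI libraries lay above both WT libraries (23.7% of all genes). Only ND3 was called, at 7.62 ± 0.601 CPM in PlyA-KI and 0.251 ± 0.0319 CPM in WT (SD, n = 2 each). Its log2 fold change was 4.88 (SE 0.29, edgeR adjusted p = 7.33e-05). This WT level lies far below those of COX1 (8785 CPM) and ND1 (2950 CPM) in WT. As 3 counts equal 0.0763 and 0.0632 CPM in the WT libraries, the WT side of this fold rests on few counts. Of 83 cytosolic ribosomal protein genes, 80 were above 0, with a median of 0.19 and 0 calls. Markers of red blood cells summed to 446 and 643 CPM in PlyA-KI against 352 and 393 CPM in WT, and 9 of 9 were above 0. Of these 9, Alas2 was called (log2 fold change 1.01, SE 0.13, edgeR adjusted p = 0.0229). It averaged 19.5 ± 0.547 CPM in PlyA-KI and 9.59 ± 0.993 CPM in WT. For markers of interneurons and the ganglionic eminence the sums were 53.3 and 31.5 CPM in PlyA-KI against 28.2 and 14.9 CPM in WT, with 6 of 6 above 0. The 6 markers of pericytes and meninges were above 0 in log2 fold change, but their sums overlapped, at 79.2 and 186 CPM in PlyA-KI against 95.9 and 96.6 CPM in WT. Of the neuron markers 7 of 7 were above 0 (median 0.31), with sums of 5098 and 4203 CPM in PlyA-KI against 4100 and 3462 CPM in WT. Above 0 were 1 of 8 radial glia markers (median -0.13) and 1 of 9 markers of S phase and mitosis (median -0.12). The part of these cell types in the values of the mitochondrial ribosomal protein genes was not tested.

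Whether the 2 responses differed was tested as an interaction over all 8 libraries, the shRNA change minus the PlyA-KI change. None of the 77 genes was called, against 0.0128% of 15641 genes. The smallest unadjusted p belonged to Mrps33 (difference of log2 fold changes -0.46, SE 0.17), Mrpl32 (-0.50, SE 0.19) and Mrps16 (-0.52, SE 0.23), with edgeR adjusted p from 0.667 to 0.709. Both experiments have their own libraries. Lower in shRNA and higher in PlyA-KI at once were 32 of the 77 genes (41.6%), against 24.8% of the 13526 genes tested in both, with none of the 32 called in either. Of the 77, 42 were lower in shRNA and 59 were higher in PlyA-KI. An overlap of about this size follows from these counts alone, so it does not show opposed changes in the same genes.

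The largest differences lay between the sorted E16.5 control cells and the E13.5 WT cortex. Mrps30, Mrps24, Mrps34, Mrps26, Mrpl54 and Mrpl52 were higher in the E16.5 cells by 1.22 to 1.73 on the log2 scale, while Mrps25, Mrps27, Mrpl50, Mrpl55 and Mrpl19 fell by 0.83 to 1.06 on that scale. The set did not move one way: 22 genes rose and 17 fell, and the median log2 fold change was 0.00 in each subunit. The 39 called genes are 50.6% of the 77, where 61.6% of 15111 genes were called, 30.3% higher and 31.3% lower. By subunit, 13 of 48 large subunit genes rose and 12 fell, and 9 of 29 small subunit genes rose and 5 fell. Age, strain, electroporation, sorting and experiment all differ between these groups and cannot be told apart, and both groups serve as the controls of the other comparisons. Without WT 2 the test called 24 of the genes, and without WT 1 it called 27. DESeq2 called 35 of them, and 49.2% of 16823 genes. The cytosolic ribosomal protein genes were split too: in edgeR 28 of 83 rose and 22 fell (60.2% called), with a median log2 fold change of 0.02.

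Among the genes that rose, Mrps30 had the smallest p. It had 56.1 and 53.9 CPM in E16.5 control cells against 21.6 and 20.7 CPM in E13.5 WT cortex, a log2 fold change of 1.37 (SE 0.12, edgeR adjusted p = 1.25e-06). Mrps24, the counterpart of a bacterial protein at the entry of the messenger RNA channel, had 30.6 and 26.1 CPM in E16.5 control cells against 8.75 and 8.32 CPM in WT cortex (log2 fold change 1.73, SE 0.16, edgeR adjusted p = 2.02e-06). The groups were far apart in both genes, and the shRNA libraries (57.8 and 54.6 CPM for Mrps30, 36.6 and 26.1 CPM for Mrps24) lay with the control libraries. Of the exon bases of Mrps24, 15.4% overlap Urgcp on the same strand. Of those of Mrps30, 9.35% overlap a gene on the opposite strand, so the counts of both are uncertain. Mrps34, a protein needed to keep the small subunit stable, had 29.6 and 24.7 CPM in E16.5 control cells against 11.2 and 9.57 CPM in WT cortex. Its exons overlap those of Nme3 and Mapk8ip3 over 77.8% of their bases, so its counts are uncertain. Mrps26 (log2 fold change 1.23) has a pseudogene copy, and Mrpl54 (1.37), Mrpl52 (1.22), Mrps16 (0.93), Mrpl4 (0.89), Mrpl34 (0.88) and Mrpl43 (0.81) complete the 10 with the smallest p. Mrps16 has 2 pseudogene copies.

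Among the genes that fell, Mrpl50, a large subunit protein particular to mitochondria, had 43.3 and 39.6 CPM in E16.5 control cells against 76.2 and 77.6 CPM in E13.5 WT cortex (log2 fold change -0.90, SE 0.11, edgeR adjusted p = 2.1e-05). Mrps27, a small subunit protein of the pentatricopeptide repeat family, had 14.1 and 15.3 CPM in E16.5 control cells against 27.9 and 30.7 CPM in WT cortex (log2 fold change -0.998, SE 0.15, edgeR adjusted p = 9.03e-05). Mrps25 had 17.9 and 16.6 CPM in E16.5 control cells against 34.1 and 37.3 CPM in WT cortex, with 69.8% of its exon bases overlapped by Nr2c2 on the other strand. In all 3 the groups were clearly separate, and the shRNA libraries lay nearer to the control libraries than to the WT libraries. They had 15.4 and 14.5 CPM for Mrps27 and 16.8 and 13.4 CPM for Mrps25. For Mrpl50 they had 34.7 and 35.8 CPM, below both control libraries. Mrpl19 (log2 fold change -0.83), Mrpl55 (-0.84), Mrpl42 (-0.69), Mrps18c (-0.56), Mrpl48 (-0.54), Mrpl45 (-0.49) and Mrps33 (-0.42) complete the 10. Of these, Mrpl45, which in the ribosome contacts the inner membrane, and Mrps18c, Mrpl48 and Mrps33 were not called without WT 2, nor Mrps33 without WT 1. Other genes overlap 36.0% of the exon bases of Mrpl19, 33.4% of those of Mrpl43 and 24.2% of those of Mrps27. Mrps25, Mrpl42, Mrpl48 and Mrps33 each have a pseudogene copy, as do Mrps18b, Mrps21 and Mrpl51, which leaves their counts uncertain.

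The Mrps18 paralogs were all called, in opposite directions: Mrps18a rose (log2 fold change 0.65, SE 0.14), and Mrps18b (-0.59, SE 0.22) and Mrps18c (-0.56, SE 0.15) fell. Of the exon bases, 30.5% of Mrps18b and 23.2% of Mrps18c overlap another gene. Mrpl12 rose by 0.39 (SE 0.15, edgeR adjusted p = 0.0398). With Mrps30 and Mrps18a counted to the large subunit and Mrps36 left out, 15 of 50 large subunit genes rose and 12 fell, and 7 of 26 small subunit genes rose and 5 fell.

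**Figure D3:**
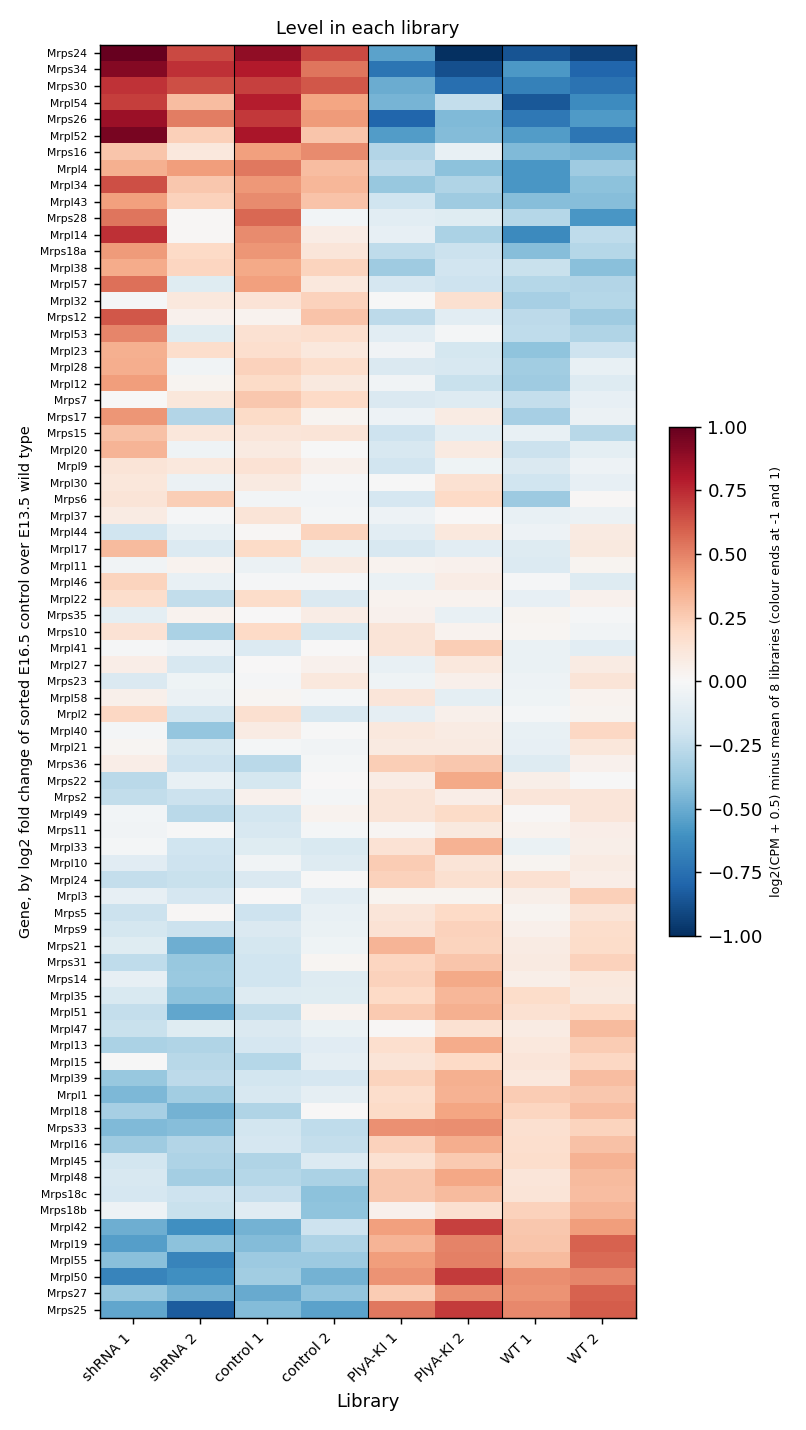
Level of the 77 tested genes in each library, as log2(CPM + 0.5) minus the mean of the 8 libraries, with genes ordered by the log2 fold change of E16.5 control over E13.5 WT. The 4 sorted libraries on the left share their colours at the top and bottom of the order, opposite to the 4 cortex libraries, and shRNA 1 is above shRNA 2 in 56 of the genes.

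The other pair of groups, shRNA cells and PlyA-KI cortex, shares no library with these and differs in age, strain and preparation in the same way, with shRNA and PlyA-KI added. It was set beside the first after the data had been seen. There 38 of the 77 genes were called, where 62.1% of 15091 genes were, and 29 (37.7% of the 77) were called with 1 direction in both pairs, 14 higher and 15 lower at E16.5. Of 14799 genes tested in both, 53.3% were called in this way. Mrps30 had a log2 fold change of 1.35 in shRNA over PlyA-KI, Mrps24 1.75, Mrpl50 -1.20 and Mrps25 -1.28. Of the Mrps18 paralogs, Mrps18b was not called in this pair (-0.22, SE 0.22, edgeR adjusted p = 0.398), nor was Mrpl12 (0.40, SE 0.17, edgeR adjusted p = 0.0567).

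**Figure D4:**
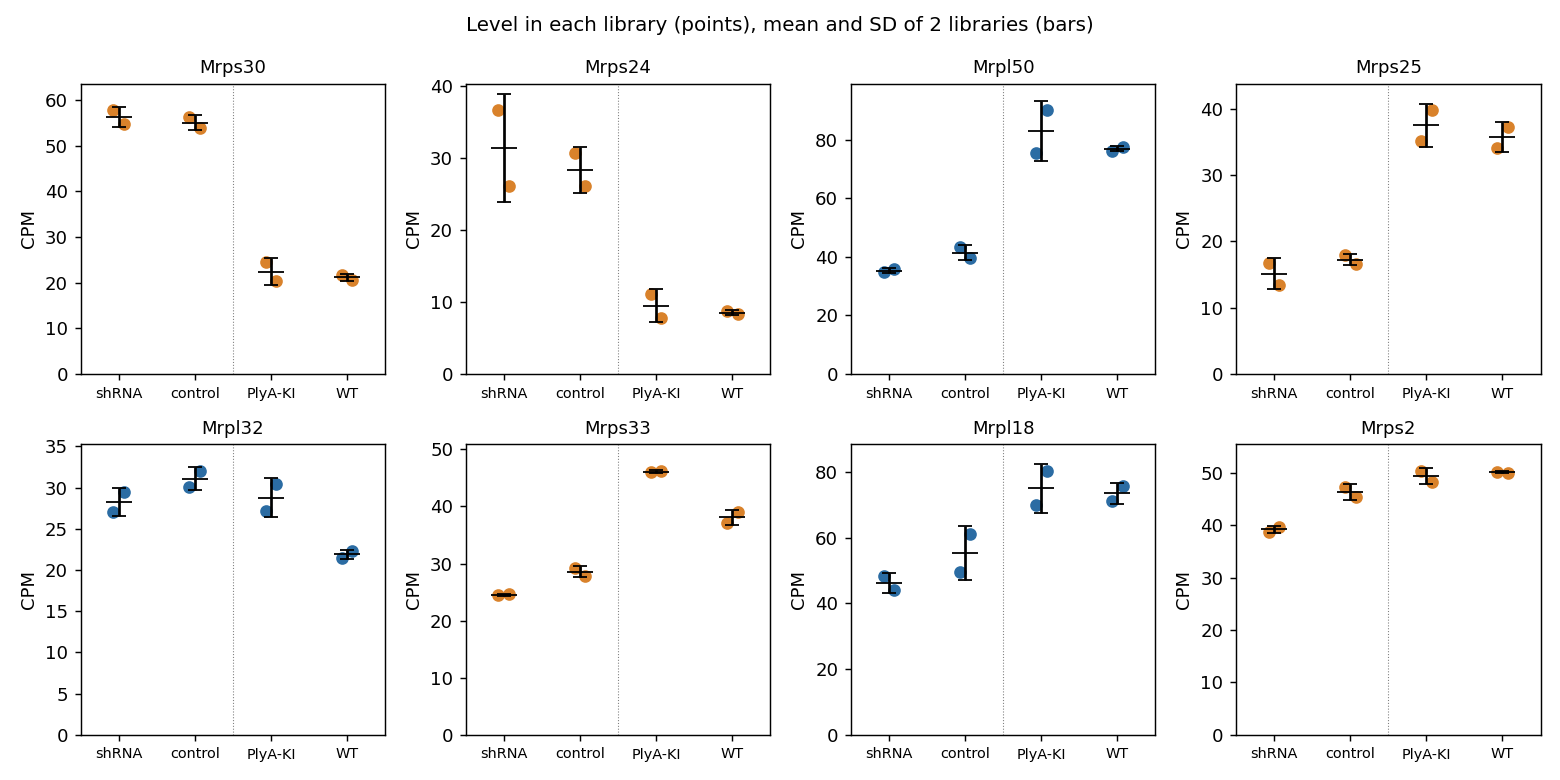
CPM of 8 genes in each library (points), with mean and SD of 2 libraries (bars), for shRNA, control, PlyA-KI and WT from left to right, with a dotted line between experiments. Mrps30 and Mrps24 are high in the sorted cells, at 26.1 CPM or above, and Mrpl50 and Mrps25 are high in the cortices. Mrpl32 and Mrps33 are the 2 genes with the smallest p in the knock-in, and Mrpl18 and Mrps2 those in the knockdown.

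The direction of these differences went with base composition. The genes that rose had a median transcript GC content of 55.7% and a median length of 881.5 bases, and those that fell had 47.1% and 1134 bases. Across the 77 genes, log2 fold change and GC content correlated at Pearson's r = 0.48 and Spearman's rho = 0.48, a description across genes that share libraries, and over all genes with a GC value r was 0.26 and rho 0.35. From the lowest to the highest quartile of GC, the median log2 fold change of these genes was -0.27, -0.17, 0.02 and 0.63, and that of all genes was -0.35, -0.19, 0.03 and 0.50. Mrps30, with 44.2% GC, and Mrps27, with 52.2%, lay off this trend. In the knockdown, Pearson's r with GC content was 0.37 over the 77 genes and 0.20 over all genes, and in the knock-in -0.03 and -0.07. Differences between replicates 1 and 2 correlated with GC over the 77 genes too. Here r was 0.26 in shRNA, 0.35 in control, 0.23 in PlyA-KI and 0.05 in WT. The part of GC content in the calls of the E16.5 comparison was not tested. Genes that rose had any of the 3 promoter motifs in 76.5% of 17 with an entry, and genes that fell in 64.3% of 14. Among all 69 genes of the set with an entry the share was 59.4%, and among all genes 15.1%. The shares by direction rest on few genes and were not tested.

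**Figure D5:**
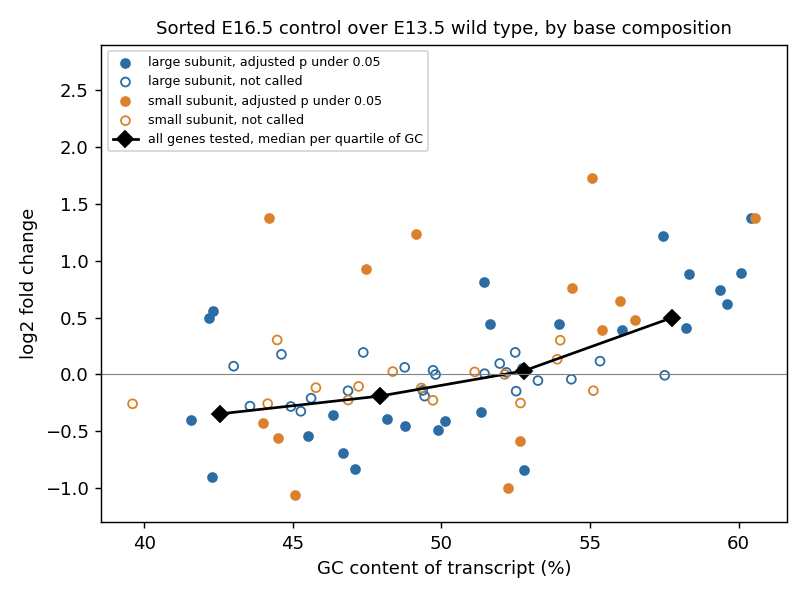
Log2 fold change of E16.5 control over E13.5 WT against the GC content of the transcript for the 77 tested genes, by subunit and call, with medians of all genes per quartile of GC (black diamonds). The points rise with GC as do the diamonds, whose medians go from -0.35 to 0.50.

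Markers of cell types differed between these groups as well. All 9 markers of S phase and mitosis fell, to sums of 1487 and 1608 CPM in E16.5 control cells against 4404 and 5044 CPM in E13.5 WT cortex, and 6 of 8 radial glia markers fell, to sums of 1088 and 1036 CPM in E16.5 control cells against 2341 and 2388 CPM in WT cortex. Of 7 markers of neurons, 5 rose, with sums of 5248 and 5551 CPM in E16.5 control cells against 4100 and 3462 CPM in WT cortex. Markers of red blood cells summed to 8.12 and 6.76 CPM in E16.5 control cells against 352 and 393 CPM in WT cortex, with Hbb-y at 0 in both control libraries. Markers of pericytes and meninges summed to 8.36 and 5.78 CPM in E16.5 control cells against 95.9 and 96.6 CPM in WT cortex, with Lum and Dcn at 0 in both control libraries. The part of this makeup in the changes of the mitochondrial ribosomal protein genes was not tested.

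Other genes of mitochondrial translation were read in the same comparison, from lists drawn up by function. The counts of each list stand beside 30.3% of all genes called higher and 31.3% called lower in this comparison. Of 5 mitoribosome proteins known by other symbols, Aurkaip1 (log2 fold change 0.82), Gadd45gip1 (0.88) and Dap3 (0.31), a small subunit GTP-binding protein, rose, and Ptcd3 (-0.41), a pentatricopeptide repeat protein of the small subunit, fell. Of 30 genes of ribosome assembly and rRNA modification, 8 rose and 7 fell. Malsu1, which keeps unfinished large subunits from joining, rose (1.67, SE 0.27), as did Mettl17 (1.08) and Noa1 (0.90), while the GTPase gene Gtpbp10 fell (-0.94). Of 14 translation factors, 2 rose and 7 fell, among them the initiation factor gene Mtif2 (-0.54), the recycling factor gene Gfm2 (-0.70) and Taco1 (-1.07), an activator of COX1 translation, against a rise of Oxa1l (0.46), which inserts new proteins into the inner membrane. Of 16 mitochondrial aminoacyl-tRNA synthetases, 5 rose and 9 fell: Rars2 had 20.6 ± 1.35 CPM in E16.5 control cells and 42.6 ± 0.176 CPM in E13.5 WT cortex, and Fars2 had 22.6 ± 0.210 CPM in E16.5 control cells and 12.2 ± 0.613 CPM in WT cortex (SD, n = 2 each).

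Upkeep and transcription of mitochondrial DNA stood lower in the E16.5 cells in 9 of 15 genes and higher in 1. Tfam, which packages mitochondrial DNA, had 49.7 ± 2.19 CPM in E16.5 control cells and 75.4 ± 0.190 CPM in E13.5 WT cortex (log2 fold change -0.61, SE 0.11, edgeR adjusted p = 0.000355). Lrpprc (-0.82) and Mgme1 (-1.67), a nuclease of mitochondrial DNA, fell, and Slirp (0.95), the partner of Lrpprc in stabilising mitochondrial messenger RNAs, rose. Of the 13 mitochondrially encoded subunits, 7 fell and 2 rose. COX1 averaged 4509 CPM in control cells and 8785 CPM in WT cortex, a log2 fold change of -0.97 (SE 0.11). Of 11 nuclear regulators, 4 rose and 5 fell. Myc (1.83, SE 0.12) and Esrra (1.45), both activators of mitochondrial genes, rose, and Ppargc1a (-1.83), a coactivator that drives mitochondrial biogenesis, and Gabpb2 (-1.43), a subunit of an ETS-family factor, fell. In the knockdown none of these 7 lists held a called gene, and in the knock-in ND3 was the only called gene of these lists.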

How the data were processed

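Messenger RNA of 8 libraries, 2 in each of 4 groups, was measured. TRIzol extraction and the KAPA Hyper Prep kit are named in the labels' protocols. The submitters' processing notes name the tools bcl2fastq, Trimmomatic, HISAT2 and featureCounts, and the build mm10. The tool versions, the annotation and whether counting used strand are not given in these sources, so genes that overlap others (28 of the 78 on the opposite strand) or have near-identical pseudogene copies (18 of the 78, at least 95% identity over 200 bases, blastn 2.17.0) have uncertain counts. The authors deposited whole-number counts per gene, not normalised, and beside each an FPKM value, whose implied gene length was whole (tolerance 0.001) for 100% of genes.

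Of 27178 Entrez identifiers, 25274 took their symbol from RefSeq (assembly GRCm38.p6) and 18 from GENCODE. The other 1886 stayed in all tests. CPM is the count over the library total. The members and lists were chosen with earlier results of these data known. Each comparison was fitted over all genes on its own 4 libraries, and the difference between the 2 responses on all 8, in edgeR 4.0.16 (R 4.3.3) with filterByExpr, TMM, the two-sided quasi-likelihood test and Benjamini-Hochberg adjustment at 0.05. The script was tested on simulated data. SE is the absolute log2 fold change over the square root of F. Alternatives were DESeq2 1.42.0, its size factors, library totals, 2 other filters, limma 3.58.1 on log2(FPKM + 0.5), one joint fit, a block for the replicate number, a minimum log2 fold change of 0.5, each library left out, and subunits by structure. Named genes are, per comparison, up to 10 called genes per direction by p (the 10 with the smallest p where fewer than 10 were called), the 5 highest and 5 lowest by FPKM, Mrps18a, Mrps18b, Mrps18c, Mrpl12, Mrps30 and Mrps36, and up to 4 called genes of each list. Genes named outside that rule (Mrps35 and the lowest and highest values) were chosen after their values were seen. Some genes under this rule are not reported here.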

Additional observations from a re-analysis of the deposited data

How the results depend on the processing

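Leaving out single libraries moved the medians. The knockdown and the difference between responses gave 0 calls under every alternative run. The knock-in count was 5 with the replicate number as a block (Mrpl32, Mrps33, Mrpl41, Mrpl30 and Mrpl42, in a fit that called 2193 of 15398 genes, and in the knockdown 161 of 13758 with 0 of these genes) and 0 otherwise. Same-numbered libraries deviated together at r = 0.15 among sorted cells and 0.10 among cortices, and at 0.49 and 0.12 over the 77 genes. With 2 pairs each and no pairing in the labels, the numbers were not taken as pairs. The E16.5 count of 39 was 24 with a log2 fold change of at least 0.5, 35 in DESeq2 and 24 to 42 with each library left out. The small subunit median was there -0.0586 by structure, and -0.0976 to 0.0321 with each library left out. In the knockdown, with each library left out, the small subunit median ran from -0.0796 to 0.0846 and the large from -0.120 to 0.0512. In the knock-in these ranges were 0.0219 to 0.118 and 0.00647 to 0.136. Of the values of single named genes, 120 of 120 kept direction and call in the knockdown, 116 of 120 in the knock-in (4 were called under the block) and 235 of 240 at E16.5, where 5 lost their call with a WT library left out. The cause of these shifts was not tested.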
